A study of Mus musculus with 30 samples.

Results

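The comparison described here set 3 arrays of blood mononuclear cells taken 3 h after an injection of oleic acid (OA) against 2 arrays taken 3 h after an injection of physiological serum, 5 of the 30 arrays of the series. Its members were the probes that the scanner software marked as well above background on at least 2 of these 5 arrays, 25313 of the 55681 distinct probes, which stood for 18665 genes or unnamed transcripts. Every value is the log2 processed signal of a probe minus the 75th percentile of that signal over the array's non-control probes, so that 0 is the 75th percentile and a difference of 1 is a doubling. The whole series covered 6 times from 1 h to 24 h.

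All mice were female C57BL/6, aged 6 weeks, and all were anaesthetised with xylazine and ketamine. The OA mice received 200 µl containing OA at 1.2 µl per g of body weight through the tail vein, and the controls the same volume of serum by the same route. Animals were killed by bleeding 3 h later, mononuclear cells were taken from 200 to 900 µl of blood on a Ficoll gradient (1.084), and 200 ng of RNA was labelled with Cy3 for a one-colour array. No pooling of animals is stated. Anaesthesia, injection and terminal bleeding were thus shared by both groups, and untreated mice were not analysed here.

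Oleic acid is a monounsaturated fatty acid that, given into a vein, reaches the lung capillaries first, damages the endothelium and alveolar epithelium, and is used to model acute lung injury and fat embolism. Blood monocytes comprise classical cells, which enter inflamed tissue through Ccr2, and patrolling cells, which crawl along the vessel wall and depend on Nr4a1 and Cx3cr1. Platelets adhere to injured endothelium and release chemokines from their granules, and they separate with mononuclear cells when they are bound to them or not washed away. Fatty acids bind the nuclear receptors of the PPAR family, whose targets include fatty acid binding proteins and lipid droplet coats.

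The arrays carried RNA of lymphocytes and monocytes, as labelled, since Cd3e, Cd79b and Csf1r were well above background on all 5. They also carried RNA of other blood cells, because the neutrophil gene S100a9, the haemoglobin gene Hba-a1 and the platelet gene Pf4 were well above background on all 5 as well. The 75th percentile of signal ran from 40.0 on serum replicate 2 to 150 on OA replicate 1, and OA replicate 1 also had the highest share of probes well above background, 64.4% against 36.7% to 42.7% on the other 4. The median correlation of each of the 5 arrays with the other arrays of the series lay between 0.932 and 0.958. Slide 1 held serum replicate 2 and OA replicate 2 and was the only slide with both groups. The other 3 arrays lay on different slides, and OA replicate 3 came from a slide that held only OA arrays and was scanned on another day than the rest.

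No gene passed the test at 3 h. In a limma fit of all 30 arrays in 12 groups, 0 of 18665 genes (0.0%) had a Benjamini-Hochberg adjusted p under 0.05, and the smallest adjusted p was 0.142. At an unadjusted limma p under 0.05 there were 1227 genes higher in OA (6.57%) and 794 lower (4.25%). The OA and serum arrays did not overlap, called apart in what follows, for 4016 genes with higher OA values (21.5%) and for 3011 with lower OA values (16.1%), and these shares are the background for every count that follows. The median difference over all genes was 0.08, and 55.3% of genes were higher in OA. The design text counts 30 mice for the 30 arrays, but the labels tie no array to an animal, so the p-values measure the spread between these arrays.

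The difference moved with signal level and with scaling. With the genes cut by mean level into 4 equal classes, the median difference was −0.10 in the dimmest class and 0.20 in the brightest, where 27.7% of genes were higher in OA without overlap and 8.96% lower. With arrays scaled to the median of the probes always above background, the median of all genes was −0.05, and 17.7% of genes were higher without overlap against 20.4% lower. The genes at an unadjusted p under 0.05 then numbered 1364 higher and 1357 lower. Serum replicate 2 weighed most on these counts: without it 420 genes in place of 2021 had an unadjusted p under 0.05, and without OA replicate 3 there were 1100. Without serum replicate 1, which leaves serum replicate 2 as the lone control, assumed to vary like the other groups, 12 genes were called, 11 higher and 1 lower. Of these, Abcb10, a mitochondrial transporter of erythroid cells, had −0.91 and −3.73 on the serum arrays and −0.52, −0.48 and 0.11 on the OA arrays, so that its difference rested on serum replicate 2 being low.

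The 39 lists described below hold 762 genes, of which 669 were measured here. Their medians were above the median of all genes for 36 lists, including all 25 lists of pathways, among them genes of general function such as the cytosolic ribosomal proteins (median 0.20) and the proteasome (0.33). The first was −0.00 without OA replicate 3, 0.39 without OA replicate 1 and 0.13 without serum replicate 2, and the second 0.07 without serum replicate 2. A list median of that size was therefore common here. In bulk samples a lower share of a cell type and less RNA per cell cannot be told apart.

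**Figure D1:**
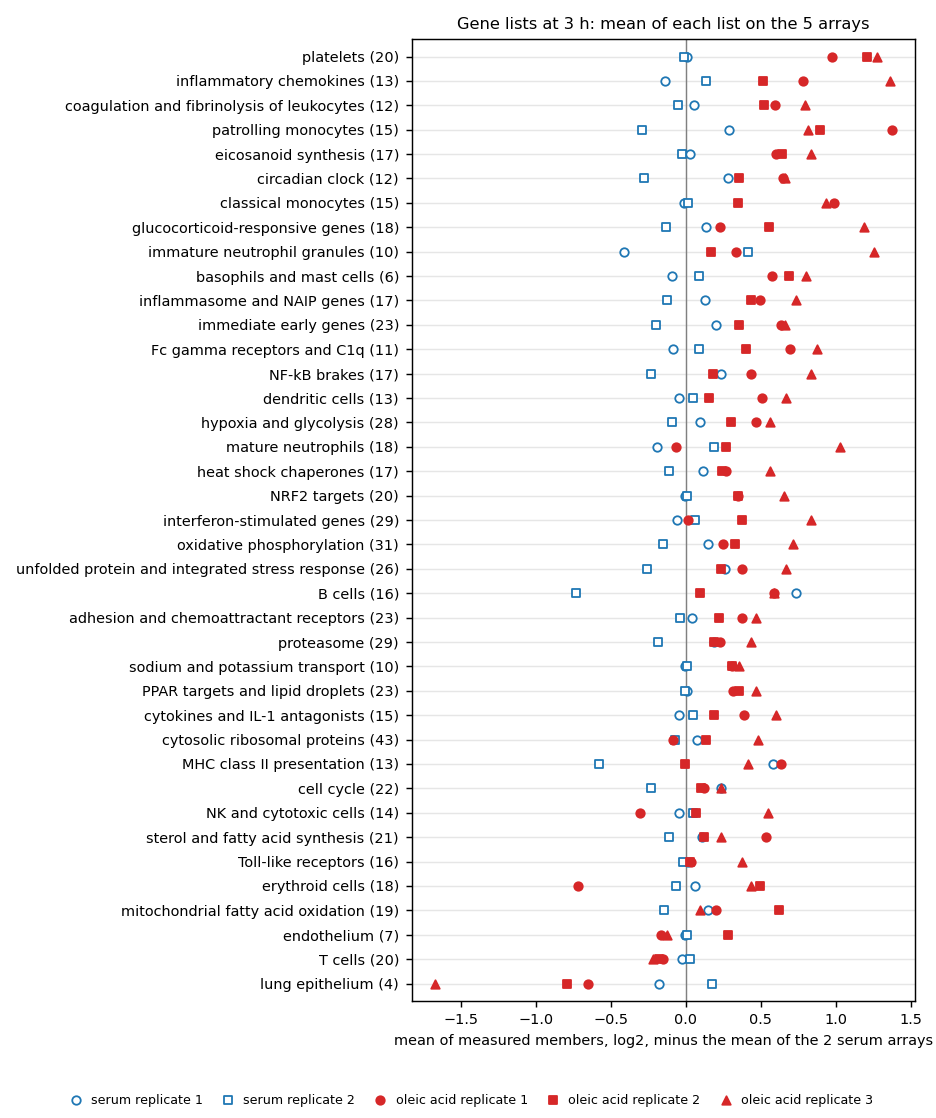
Mean log2 level of the measured members of each gene list (number in brackets) on each of the 5 arrays of 3 h, minus the mean of the 2 serum arrays. Open blue symbols are serum, filled red symbols OA, and lists are ordered by their median difference, from platelets at 1.15 to lung epithelium at −1.02. The 3 OA arrays lie above both serum arrays for platelets and for many other lists. Among these are both monocyte lists, eicosanoid synthesis, PPAR targets, NRF2 targets, sodium and potassium transport and, narrowly, the proteasome. They lie below both serum arrays for T cells and lung epithelium.

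Platelet genes were higher in OA throughout. All 20 markers had higher values on each of the 3 OA arrays than on either serum array, against 21.5% of all genes, and their median difference was 1.15. The mean over the 20 genes was 4.73 and 4.72 on the serum arrays and 5.70, 5.93 and 6.00 on the OA arrays, so that replicates differed by far less than the groups. Of the 20, 5 had an unadjusted limma p under 0.05 (P2ry12, Ppbp, Thbs1, Gp6 and Pf4), and none passed the adjusted threshold.

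Both platelet chemokines were higher on every OA array. Pf4, the chemokine CXCL4 of platelet granules, read 8.56 and 8.70 on the serum arrays and 9.50, 10.28 and 10.40 on the OA arrays, a difference of 1.43 (SE 0.65, adjusted p = 0.446 by limma). Ppbp, the precursor of the neutrophil-activating chemokine CXCL7, read 7.50 and 7.33 against 8.66, 9.23 and 9.16, a difference of 1.60 (SE 0.66). In both genes OA replicate 1 was the lowest of the OA arrays and still above serum. The largest difference was in P2ry12, the ADP receptor that amplifies platelet activation, with 2.18 and 2.16 in serum and 3.97, 4.26 and 4.38 in OA (2.03, SE 0.73). Gp6, the collagen receptor, read 3.34 and 3.43 against 4.36, 4.93 and 5.12, and Thbs1, the granule protein thrombospondin-1, read 3.91 and 3.35 against 4.86, 5.45 and 5.31.

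The adhesion receptors varied more in size. Gp1ba, the part of the von Willebrand factor receptor that binds the ligand, was higher by 1.37 (SE 0.67), but its partners Gp9, Gp1bb and Gp5 were higher by 1.09, 0.47 and 0.56. Of the fibrinogen receptor, Itgb3 was higher by 1.27 (SE 0.62) and Itga2b by 0.64 (SE 0.93). The list median was 1.24 within the slide that held both groups, 1.02 with scaling to always-detected probes and 0.69 with the long intergenic RNA signal as a covariate, its lowest value over 20 alternatives. The highest platelet mean on a serum array of another time was 5.94, so that the OA arrays of 3 h were within or just above the range seen in serum mice of the series.

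**Figure D2:**
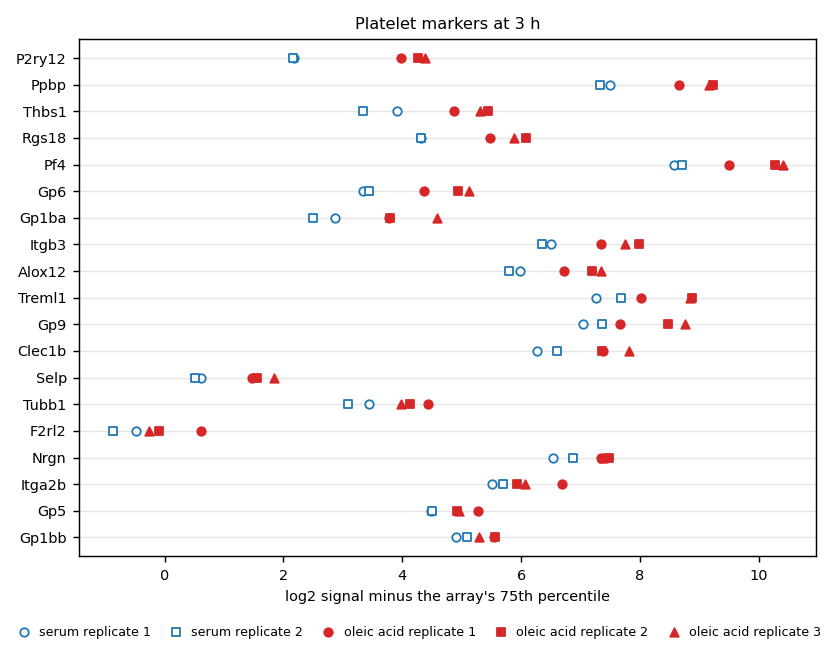
Levels of 19 of the 20 platelet markers on the 5 arrays of 3 h, as log2 signal minus the array's 75th percentile, ordered by difference. In every row the 3 filled red symbols (OA) lie to the right of both open blue symbols (serum), from P2ry12 with a difference of 2.03 to Gp1bb with 0.47.

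Pf4 and Ppbp are neighbours on chromosome 5, and their promoters are shown with that of Gp6 because these genes were higher together and because GATA and ETS factors are known to act at megakaryocyte promoters. The sequences are those of RefSeq, 250 bases before to 50 after the gene's start, for Pf4 chr5:90772185-90772484 (plus strand), Ppbp chr5:90768268-90768567 (plus strand) and Gp6 chr7:4397695-4397994 (minus strand), build GRCm38.p6, written 5′ to 3′ on the gene's strand. Capitals mark the GATA motif AGATAA and the ETS motif AGGAAG, read on both strands (TTATCT and CTTCCT on the other), which do not overlap each other here.
Pf4: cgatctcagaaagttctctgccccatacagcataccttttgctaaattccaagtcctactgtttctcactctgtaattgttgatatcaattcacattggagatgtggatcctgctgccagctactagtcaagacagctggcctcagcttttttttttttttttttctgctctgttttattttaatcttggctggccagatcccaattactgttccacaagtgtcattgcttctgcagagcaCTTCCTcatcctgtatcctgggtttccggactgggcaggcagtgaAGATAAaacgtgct
Ppbp: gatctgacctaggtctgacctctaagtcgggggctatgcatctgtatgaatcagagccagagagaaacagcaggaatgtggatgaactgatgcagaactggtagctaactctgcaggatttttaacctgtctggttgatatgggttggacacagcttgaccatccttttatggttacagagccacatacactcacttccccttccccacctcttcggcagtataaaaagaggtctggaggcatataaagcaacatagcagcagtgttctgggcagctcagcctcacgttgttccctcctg
Gp6: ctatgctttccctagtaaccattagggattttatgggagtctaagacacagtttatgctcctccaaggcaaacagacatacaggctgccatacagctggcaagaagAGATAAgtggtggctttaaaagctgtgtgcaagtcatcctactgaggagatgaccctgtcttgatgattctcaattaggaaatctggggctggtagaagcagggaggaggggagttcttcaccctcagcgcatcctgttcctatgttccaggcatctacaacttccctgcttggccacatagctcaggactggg
The Pf4 window held 1 match to each motif, that of Gp6 1 match to AGATAA, and that of Ppbp neither. Of the 16 platelet genes with a RefSeq promoter in the table, 5 had AGATAA and 10 had AGGAAG in at least 1 of their promoters. The shares counted the same way over all 27025 genes were 12.7% and 38.4%, and per promoter, over 32851 of this length, 11.2% and 35.4%. A match describes letters only.

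Monocyte genes were also higher, and the patrolling list had the higher count at an unadjusted p under 0.05. Of 15 measured patrolling markers 14 were higher in OA, 6 of them at that threshold, and 8 did not overlap. Of 15 measured classical markers 14 were higher, 3 at that threshold, and 9 did not overlap. The medians were 0.76 and 0.73, that of the patrolling list 0.49 without serum replicate 2 and that of the classical list 1.202 without OA replicate 2. The mean of the patrolling markers was 1.97 and 1.39 in serum and 3.05, 2.57 and 2.49 in OA, and that of the classical markers was 3.43 and 3.45 in serum and 4.43, 3.79 and 4.38 in OA. Within the slide that held both groups the medians were 0.90 for patrolling and 0.29 for classical markers, since OA replicate 2 was the lowest OA array for the classical list.

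Among the patrolling markers, Ear2, an eosinophil-associated ribonuclease of these monocytes whose probe is listed for more than 1 gene, read 2.59 and 1.48 in serum and 4.72, 4.00 and 4.18 in OA, a difference of 2.27 (SE 0.66, adjusted p = 0.421 by limma). Adgre4, an adhesion receptor of the EMR family, read −0.94 and −1.54 against 1.59, 0.93 and 0.33, a difference of 2.19 (SE 0.59). Cd300e, an activating receptor of monocytes, read 0.33 and −0.43 against 2.33, 1.86 and 1.43, a difference of 1.92 (SE 0.66). In all 3 genes OA was higher without overlap and serum replicate 2 was the lowest array. Nr4a1, the nuclear receptor that patrolling monocytes need and that is also an immediate early gene, read 4.21 and 3.00 against 5.63, 4.60 and 5.71 (1.71, SE 0.58). Cx3cr1, the fractalkine receptor, was higher by 1.61 on its brightest probe and by 0.82 on another. Itgal and Pou2f2, which lymphocytes also express, differed by 0.01 and −0.05 and overlapped.

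Among the classical markers, F13a1, the coagulation factor XIII A subunit, which monocytes and platelets both carry, read 4.37 and 4.39 in serum and 5.90, 5.91 and 6.05 in OA (1.57, SE 0.57). Plac8 read 4.97 and 4.37 against 5.92, 5.55 and 6.70 (1.38, SE 0.53), but its other probe gave 0.34. Csf1r, the receptor for the growth factor of monocytes, read 4.89 and 4.70 against 6.17, 5.34 and 6.09 (1.08, SE 0.46), and its 3 probes ranged from 0.34 to 1.08. Other defining markers overlapped: Ccr2 differed by 0.90, Lyz2 by 0.68 and Cd14, the lipopolysaccharide co-receptor, by 0.40, each with at least 1 OA array inside the serum range or below it. Ly6c2 was not among the probes kept. On the serum arrays of other times the classical mean ran from 1.82 to 4.37 and the patrolling mean from 0.76 to 2.84. The classical mean of 1 and the patrolling mean of 2 of the 3 OA arrays thus lay within those ranges. The medians of those serum arrays were 4.06 for classical and 2.24 for patrolling markers, and both serum arrays of 3 h lay below them.

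**Figure D3:**
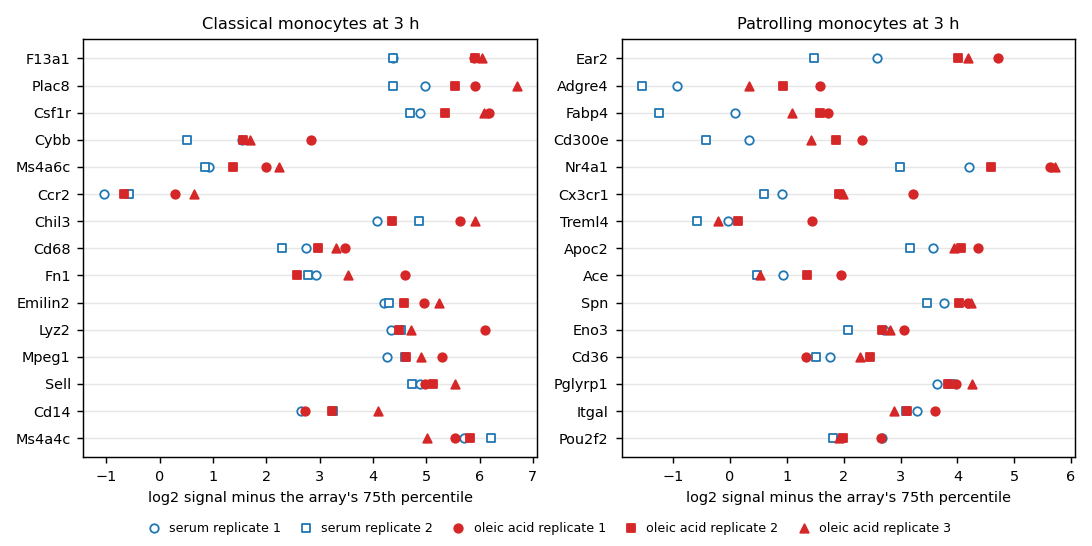
Levels of the measured markers of classical (left) and patrolling (right) monocytes on the 5 arrays of 3 h, as log2 signal minus the array's 75th percentile, ordered by difference. Filled red symbols (OA) lie to the right of both open blue symbols (serum) for 9 classical and 8 patrolling markers, with F13a1 and Ear2 at the top.

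T cell genes were slightly lower. Of 20 markers 14 were lower in OA, 8 without overlap against 16.1% of all genes, and 0 had an unadjusted p under 0.05. The list averaged 4.41 and 4.47 in serum and 4.29, 4.26 and 4.22 in OA, and the median difference was −0.19. Bcl11b, a transcription factor that keeps T cell identity, read 4.28 and 4.32 against 3.99, 3.32 and 3.55 (−0.68, SE 0.41), although its other probe gave 0.67. Cd5 differed by −0.54, Cd3d by −0.46 and Cd3e by −0.13, all 3 without overlap. With normexp background correction the list median was 0.15 and Cd3e differed by 0.20, so that the sign turned with that setting.

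B cell genes showed a split between the controls in place of a difference between the groups. The list mean was 3.79 on serum replicate 1 and 2.32 on serum replicate 2, with the OA arrays between them at 3.64, 3.15 and 3.64, and 0 of 16 markers was apart. Cd79a, a signalling chain of the B cell receptor, read 5.91 and 4.37 in serum and 5.74, 5.41 and 5.68 in OA. The list median of 0.39 became −0.29 without serum replicate 2 and 1.16 without serum replicate 1, although 3 markers (Vpreb3, Ms4a1 and Spib) had an unadjusted limma p under 0.05. The 13 genes of MHC class II presentation behaved alike, with a median of 0.20 that became −0.25 without serum replicate 2, 1.08 without serum replicate 1 and 0.06, 0.41 and 0.30 without OA replicates 1, 2 and 3. Within this list 3 genes were apart, the co-stimulatory receptor genes Cd40 (1.03) and Cd86 (0.80) and the lysosomal protease gene Ctss (1.22).

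The other blood cell types had medians below those of platelets and monocytes. Of 18 markers of mature neutrophils 15 were higher, 4 without overlap and 0 at an unadjusted p under 0.05, and OA replicate 3 stood highest with a list mean of 5.06 against 3.84 and 4.22 in serum. The list median of 0.46 was 0.16 without that array, 0.77 without OA replicate 1 and 0.27 without serum replicate 1. S100a8, a calcium-binding alarmin, read 7.87 and 8.21 in serum and 7.68, 8.72 and 9.62 in OA, while Csf3r, the receptor for the neutrophil growth factor, differed by −0.56 with overlap. Of 10 measured genes of immature neutrophil granules 8 were higher, 3 apart, with a median of 0.65 that was −0.26 within the slide holding both groups, 0.14 without serum replicate 1 and 0.18 without OA replicate 3. Of 14 NK and cytotoxic genes 9 were higher, with a median of 0.17 that was −0.08 without OA replicate 3 and 0.40 without OA replicate 1, and the only one apart was Prf1, the pore-forming perforin, which differed by −0.72 (SE 0.36). Dendritic cell genes had a median of 0.49 with 5 of 13 apart, which was 0.30 without serum replicate 2, 0.23 without OA replicate 3, 0.75 without OA replicate 2 and 0.05 with normexp correction. Of the 5, Clec9a, a receptor for dead cells, and Cd209a were not well above background on either serum array and were kept only through the OA arrays. Over the 9 dendritic genes well above background on all 5 arrays, 3 were apart and the median was 0.26. The list mean was 1.06 and 1.16 in serum and 1.62, 1.26 and 1.78 in OA, against a median of 1.83 on the serum arrays of other times. Of 11 basophil and mast cell markers 6 were measured, of which 5 were higher, 3 apart, with a median of 0.60. Only 3 of them were well above background on all 5 arrays, with a median of 0.30, and the list median was 0.26 with normexp correction. Gata2 read 0.14 and 0.23 in serum and 1.13, 1.38 and 1.79 in OA.

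Genes of red cells and of lung were examined for RNA of other sources. The erythroid list had a median of 0.14 over 18 genes, which was 0.02 without serum replicate 2 and 0.57, −0.04 and −0.15 without OA replicates 1, 2 and 3, and OA replicate 1 stood apart with a list mean of 4.04 against 4.70 to 5.25 on the other 4 arrays. Alas2, the first enzyme of haem synthesis in red cells, read 10.39 and 10.54 in serum and 9.08, 10.29 and 9.64 in OA. Of 14 lung epithelium genes only 4 were measured, and all 4 were lower in OA, with a median of −1.02 that was −0.51 without OA replicate 3. Scgb1a1, the secretoglobin of airway club cells, read −0.95 and −0.29 in serum and −2.84, −2.02 and −2.92 in OA (−1.98, SE 0.72). The surfactant gene Sftpd and the alveolar receptor gene Ager differed by −1.56 and −0.48, and only Hopx was well above background on all 5 arrays, with a difference of −0.13. The endothelial list had 7 of 13 genes measured and a median of −0.07, which ran from −0.20 to 0.05 when an array was left out, positive without serum replicate 1, with Vwf, which platelets also carry, higher by 0.66 and Eng, a co-receptor for TGF-beta, at −0.78, both without overlap.

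Immediate early genes are switched on within minutes of a stimulus without new protein. Of 23 measured, 16 were higher, 13 of them without overlap, and 5 had an unadjusted limma p under 0.05. These 5 were Nr4a1, Maff, Egr2, Zfp36 and Klf4. Zfp36, whose product destabilises cytokine mRNA, read −0.52 and −1.82 in serum and 0.44, 0.17 and 0.61 in OA (1.58, SE 0.70). Fos read 4.02 and 3.16 against 4.56, 4.48 and 4.40 (0.89), and Egr1 read 1.54 and 0.48 against 1.93, 2.71 and 2.58 (1.40, SE 0.98). Neither Fos nor Egr1 had an unadjusted limma p under 0.05, and they differed by 0.46 and 0.87 without serum replicate 2. Jun differed by 0.09, Junb by −0.58, Jund by −0.20 and Atf3 by −0.07. Serum replicate 2 was the lowest array for 12 of the 23 genes, and the list median of 0.55 ran from 0.20 to 1.00 over 20 alternatives, with 0.27 without serum replicate 2 and 1.00 without serum replicate 1.

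All 18 genes of the glucocorticoid list had higher values in OA, with a median of 0.68, and 8 were apart. The median was 0.37 without OA replicate 3 and 0.36 with the long intergenic signal as a covariate. These genes answer to the stress hormones of the adrenal gland through their nuclear receptor. Fkbp5, the chaperone that restrains the glucocorticoid receptor, read 1.53 and 1.36 in serum and 1.63, 2.46 and 2.88 in OA (0.88, SE 0.41). Zbtb16, a hormone-induced repressor, read 0.12 and 0.06 against 0.58, 1.05 and 1.32 (0.89, SE 0.37). In both genes OA replicate 1 was closest to serum. Tsc22d3, the GILZ gene, overlapped with a difference of 0.47, as did the metallothionein gene Mt2 with 0.12. In the list of NF-kB brakes 15 of 17 were higher but only 5 without overlap, Tnfaip3 (A20) by 0.67 among them, and the inhibitor gene Nfkbia overlapped at 0.42. The list median of 0.51 was 0.30 without serum replicate 2 and 0.27 without OA replicate 3. Of 12 clock genes 9 were higher, 6 without overlap, led by the repressors Nfil3 (1.61, SE 0.60) and Bhlhe40 (1.05, SE 0.49). Their median of 0.73 was 0.08 without serum replicate 2 and 0.22 with normexp correction.

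Inflammatory chemokines had the second highest list median, 0.95, with 11 of 13 measured genes higher and 6 apart, Cxcl10 included. That median was 0.43 within the slide holding both groups and 0.35 with normexp correction. Over the 8 genes well above background on all 5 arrays, 6 were higher, 4 of them apart, and the median was 0.96. Cxcl10, a ligand of CXCR3 that interferons induce, had the largest difference of the list. The gene was kept only through the OA arrays, so its values are given as a description. It read −4.08 and −3.60 in serum and −1.14, −2.07 and −0.42 in OA, a difference of 2.63. It was well above background on 2 of the 3 OA arrays and on no serum array, which sets OA at least 1.88-fold higher, a bound taken against the lowest signal well above background. With normexp correction the difference was 0.31. Cxcl2, a neutrophil attractant, read 0.26 and −0.60 in serum and 1.22, 1.10 and 2.56 in OA (1.80, SE 0.96). Ccl3 was higher by 1.13 and the monocyte attractant Ccl2 by 0.99, the latter with overlap and with the sign turned within the slide holding both groups (−0.47). Ccl5, a T cell and platelet chemokine, overlapped at −0.00.

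The Cxcl10 promoter is shown because this gene is held by both the chemokine and the interferon list and carries motifs of both pathways. It is the RefSeq window chr5:92348840-92349139 (minus strand, GRCm38.p6), with capitals at matches to the core of the interferon response element, GAAA, any 2 bases and GAAA, and to an NF-kB motif, GGGA, any 2 bases, T, any base and CC, on either strand, which do not overlap each other here.
Cxcl10: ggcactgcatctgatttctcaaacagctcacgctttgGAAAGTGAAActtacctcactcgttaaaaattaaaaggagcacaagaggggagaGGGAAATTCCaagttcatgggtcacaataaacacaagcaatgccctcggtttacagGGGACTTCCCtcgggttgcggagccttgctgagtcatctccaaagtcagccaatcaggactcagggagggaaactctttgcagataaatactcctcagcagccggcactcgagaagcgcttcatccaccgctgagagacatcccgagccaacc
The window held 1 match to the first motif and 2 sites that match the second, the site nearer to the start on both strands. Over all promoters the shares were 3.44% and 4.01%, and counted per gene 3.99% and 4.56%. Of the 22 interferon-stimulated genes with a RefSeq promoter, 13 held the first motif, and of 8 chemokines 3 held the second.

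Apart from Cxcl10 the interferon-stimulated genes had smaller differences. Of 29 measured, Cxcl10 included, 24 were higher, 9 without overlap, and the median was 0.43, or 0.21 without OA replicate 3. Over the 27 genes well above background on all 5 arrays, 22 were higher, 7 without overlap, and the median was 0.40. Ifit1, an RNA-binding antiviral protein, read −0.53 and −0.03 in serum and 0.16, 0.76 and 1.05 in OA (0.94, SE 0.53), and Oas1a, which makes 2-5A, was higher by 0.95. Irf7, the master regulator of type I interferon, was lower without overlap (−0.40, SE 0.65), and Gbp5, a guanylate-binding protein, read 1.73 and 3.12 against 0.69, 1.00 and 0.75 (−1.61, SE 0.63) while its second probe gave 0.61. OA replicate 3 was highest for Ifit1 and Oas1a, and the list mean was 2.70 on that array, 1.88 and 2.25 on the other OA arrays and 1.81 and 1.93 in serum.

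Of 15 measured genes of cytokines and IL-1 antagonists 12 were higher, 4 of them apart, for a median of 0.21. Over the 9 of them well above background on all 5 arrays, 7 were higher, 2 of them apart, and the median was 0.16. Il1b read 4.72 and 4.28 in serum and 5.27, 5.78 and 7.02 in OA, a difference of 1.52 whose SE was 1.02, and OA replicate 3 was the highest array. Il18, a cytokine released by inflammasomes, was not well above background on the serum arrays and was on all 3 OA arrays, at least 1.72-fold higher. Tnf read −1.24 and −1.34 against −0.53, −2.55 and −1.58 and the antagonist Il1rn overlapped too. Of 16 measured Toll-like receptors and their partners 10 were higher, 4 of them apart (25% against 21.5% of all genes), and 2 were apart and lower. The list median was 0.16, or 0.007 with the long intergenic signal as a covariate. Ly96 (MD-2), the partner of Tlr4, read −1.16 and −1.81 in serum and −0.02, −0.39 and −0.45 in OA. Tlr13, a sensor of bacterial ribosomal RNA, was higher by 1.10 (SE 0.52), while Tlr8 differed by −1.68 (SE 0.68) and Tlr9 by −0.82, each without overlap. Tlr4 was not kept.

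Naip6 was kept only through the OA arrays, since it was well above background on all 3 of them and on neither serum array, so its values are given as a description. NAIP proteins sense bacterial flagellin and secretion systems in the cytosol and assemble the NLRC4 inflammasome. The probe (chr13:101051114-101051173, build mm9 per the file headers) read −2.94 and −3.07 in serum and −0.81, −0.71 and −0.77 in OA. By the bound OA was at least 2.55-fold higher. The measured difference was 2.24, which was 2.36 within the slide holding both groups and 0.41 with normexp correction. Naip5, a closely similar neighbour, read 5.69 and 6.83 against 5.83, 6.47 and 6.97 and overlapped, and Naip2 was higher by 0.71. Cross-hybridisation between these copies was not tested. Of 17 measured inflammasome genes, Naip6 included, 13 were higher, 7 of them apart, and 2 were apart and lower. The list median of 0.57 was 0.28 without serum replicate 2. Over the 12 genes well above background on all 5 arrays, 9 were higher, 5 of them apart, and the median was 0.42. Nlrp3, the sensor of sterile damage, differed by −0.58 on dim signals.

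Genes of lipid handling differed in both directions. Pparg, the nuclear receptor that fatty acids activate and that promotes lipid uptake in macrophages, read −0.91 and −1.53 in serum and 0.96, 0.10 and 0.20 in OA. Its difference was 1.64 (SE 0.39, adjusted p = 0.347 by limma), and it ranged from 0.70 with normexp correction to 1.95 without serum replicate 1. Ppara, its relative for fatty acid oxidation, read 0.54 and 1.38 against 0.02, 0.47 and 0.10 and differed by −0.76 (SE 0.36). Fabp4, a fatty acid binding protein that PPARs induce and that is also a marker of patrolling monocytes, read 0.08 and −1.24 against 1.73, 1.58 and 1.09 (2.04, SE 0.74). Fabp5 was higher by 1.28 (SE 0.56), the triglyceride lipase gene Pnpla2 by 0.79 (SE 0.33), and the droplet coat gene Plin2 read 2.13 and 2.16 against 3.13, 2.78 and 2.89. In the list as a whole 14 of 23 were higher, 6 without overlap, and 9 were lower, 3 without overlap, for a median of 0.26 that was 0.04 without serum replicate 1 and 0.11 without serum replicate 2. Pdk4, a usual marker of PPAR activity, was not kept.

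Fatty acid oxidation and synthesis showed little. Of 19 oxidation genes 12 were higher, 4 apart, and the median was 0.12, which turned negative with scaling to always-detected probes (−0.02) and was 0.03 without serum replicate 2, 0.30 without serum replicate 1, 0.07 without OA replicate 2 and 0.19 without OA replicate 3. Acadvl, the first dehydrogenase for long chains, read 14.06 on OA replicate 2 and 3.71 to 4.06 on the other 4 arrays, a value of a single spot on a single array. Cysltr2, a leukotriene receptor, was the only other gene with 1 array more than 5 above the next, 13.92 on the same array. Of 21 genes of sterol and fatty acid synthesis 12 were higher and the median was 0.17, which turned to −0.05 without serum replicate 2 and −0.02 with the long intergenic covariate and was 0.05 and 0.10 without OA replicates 1 and 2. Of 17 genes of eicosanoid synthesis, which turns membrane fatty acids into prostaglandins and leukotrienes, 13 were higher and 12 were apart, with a median of 0.75. They included Pla2g4a (1.47), which frees arachidonic acid, Hpgd (1.44), which degrades prostaglandins, and Ptgs1 (0.94), the cyclooxygenase of platelets. Over the 13 genes well above background on all 5 arrays, 8 were apart and higher, and the median was 0.54. The list median was 0.56 without OA replicate 3 and 0.45 with the long intergenic covariate. Alox12, the platelet lipoxygenase, read 5.97 and 5.80 in serum and between 6.71 and 7.35 in OA. Of 10 genes of sodium and potassium transport 8 were higher, 3 without overlap, and the median was 0.32, or 0.20 without serum replicate 2.

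Coagulation genes of leukocytes had 7 of 12 measured members apart and higher and 2 apart and lower, for a median of 0.91. That median ran from 0.51 with the long intergenic covariate to 1.26 over 20 alternatives. Over the 7 genes well above background on all 5 arrays, 5 were apart and higher, and the median was 1.21. Besides F13a1 the genes apart and higher were led by Pros1, the cofactor protein S (1.53, SE 0.69), and F5, factor V (1.44, SE 0.68), both of which platelets also carry. F5 read 3.52 and 3.80 in serum and 4.70, 5.19 and 5.39 in OA. The platelet list moved with this one on the same arrays, and its part in these differences was not tested. Of 23 adhesion and chemoattractant receptors 19 were higher and 9 apart. Cd44, the hyaluronan receptor, read 2.58 and 1.93 against 3.63, 3.67 and 3.98 (1.51, SE 0.53), but 1 of its 3 probes gave −0.45, and Itgam, the alpha chain of Mac-1, overlapped at −1.29. Among 11 Fc receptor and complement genes 10 were higher, 5 apart, for a median of 0.51. That median was 0.79 and 0.83 without serum replicates 1 and 2. Fcgr4 was higher by 1.44 (SE 0.69), and C1qb, a chain of the first complement component, was the only one lower (−0.98). The list mean was 1.54 and 1.71 in serum and 2.32, 2.02 and 2.49 in OA, against a median of 2.26 on the serum arrays of other times.

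Genes of energy supply and stress were mostly higher by small amounts. Of 28 hypoxia and glycolysis genes 24 were higher, 15 without overlap, with a median of 0.48. Slc2a1, the glucose transporter GLUT1, was higher by 0.84 (SE 0.39) with overlap, and by 0.35 without serum replicate 2 and 0.48 without OA replicate 3. Neither the collagen hydroxylase gene P4ha1 nor the hexokinase gene Hk2 was well above background on the serum arrays, which sets OA at least 1.26-fold and 1.13-fold higher, and the sign for Hk2 turned with normexp correction (−0.04). Of 31 genes of oxidative phosphorylation 26 were higher and 11 apart, for a median of 0.43 that was 0.22 without serum replicate 2. Cox7a2, a subunit of cytochrome oxidase, read 3.29 and 2.62 against 3.72, 4.06 and 4.96 (1.29, SE 0.39), and Ndufa1 of complex I was higher by 1.15 (SE 0.37), OA replicate 3 being highest in both. For the unfolded protein and integrated stress response 23 of 26 genes were higher, 8 apart, for a median of 0.41 that was 0.19 without serum replicate 2 and 0.69 without serum replicate 1. Atf4, whose translation marks that response, read 6.14 and 5.31 against 6.37, 6.69 and 7.14, but its other probe gave 0.11, and the stress-induced Ddit3 (CHOP) differed by 0.07. The ER chaperone gene Hspa5 was higher by 0.90 and the heat shock co-chaperone gene Bag3 by 0.94. Of 20 NRF2 targets 17 were higher, 11 apart, for a median of 0.44 (0.29 without OA replicate 3), among them the quinone reductase gene Nqo1 (1.32), Srxn1 (1.24) and the ferritin gene Fth1 (0.84), and Hmox1, haem oxygenase, overlapped at 0.00. Of 22 cell cycle genes 14 were higher and the median was 0.17, which turned to −0.09 without serum replicate 2 and was 0.33 without serum replicate 1 and 0.31 and 0.08 without OA replicates 1 and 3. Of 43 ribosomal protein genes 9 were apart and higher and 8 apart and lower, close to the shares over all genes. Their list means were 8.65 to 9.21, and in the brightest class of genes the shares were 27.7% higher and 8.96% lower.

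The genes of smallest p were mostly dim. Of the 12 genes with a symbol of smallest p and higher values, 6 were not well above background on either serum array: Naip6, Cpeb2, Asph, Snx21, Spa17 and Gm7160. These 6 were kept only through the OA arrays, so that their p supports nothing, and their values are a description. Cpeb2, which controls translation through the poly(A) tail, read −4.46 and −3.46 in serum and −1.71, −1.73 and −0.41 in OA, at least 1.78-fold higher. Asph, an aspartate hydroxylase, read −3.21 and −2.82 against −0.74, −1.03 and −0.49, at least 2.57-fold higher, and its second probe gave 1.60. Ap2b1, a clathrin adaptor subunit that was well above background on all 5 arrays, read −0.43 and −0.70 against 1.30, 1.00 and 1.37 (1.79, SE 0.39) and kept 1.06 or more in all 20 alternatives. Leo1 of the PAF elongation complex was higher by 1.75 (SE 0.37), Fkbp1b, which binds the ryanodine receptor, by 1.60 (SE 0.36), and the ETS repressor gene Etv6 by 1.76 (SE 0.43).

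On the other side, Plagl1, an imprinted zinc finger regulator, read −0.12 and 1.00 in serum and −1.39, −1.29 and −1.58 in OA, a difference of −1.86 (SE 0.38, adjusted p = 0.171 by limma), and both its probes were lower. It is the gene called as lower without serum replicate 1. Etv1, another ETS factor, differed by −1.90 (SE 0.44), the guidance cue Sema3f by −2.53 (SE 0.66), which was −1.66 without serum replicate 2, and the peroxisomal thioesterase gene Acot3, a target of Ppara in liver, by −3.11 (SE 0.91), which was −1.94 without that array. Acot3 read −0.36 and 1.99 in serum against −2.85, −2.61 and −1.42 in OA, so that the serum replicates alone lay over 2 units apart. Of the 12, 2 were olfactory receptor loci, Olfr821 and Olfr268-ps1, which blood cells are not known to use. Sema3f, Gm3187, Olfr268-ps1 and 4921531P14Rik were well above background on no OA array. They were kept only through the serum arrays, so that their p supports nothing. In 11 of the 12, serum replicate 2, the dimmest array with the highest level of long intergenic RNA probes (−4.26 against −5.64 to −4.86), was the highest, and the part of array quality in these values was not tested.

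**Figure D4:**
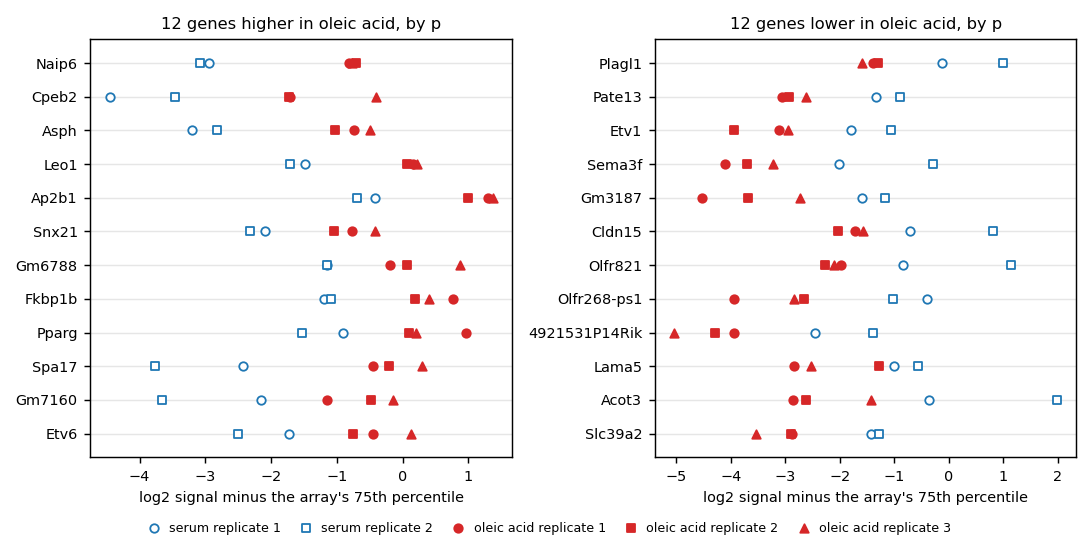
Levels of the 12 genes with a symbol of smallest limma p in each direction whose groups did not overlap, on the 5 arrays of 3 h, as log2 signal minus the array's 75th percentile. Left, genes higher in OA from Naip6 (2.24) down; right, genes lower in OA from Plagl1 (−1.86) down, where the open blue squares of serum replicate 2 often lie far to the right.

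The same contrast at the neighbouring times used other mice, and no gene's difference at 3 h was shown to depart from that at 1 h, 1.5 h, 4 h or 18 h, with 0 of 18665 genes (0.0%) called by limma in each of these 4 tests of the difference. At an unadjusted p under 0.05 there were 352, 566, 2220 and 973 such genes. Against 24 h 4 were called (0.0214%, smallest adjusted p 0.0113 by limma), namely Katnal1, a katanin-like gene, Gm4489 and 2 without a symbol. Katnal1 differed by 0.02 at 3 h and 3.30 at 24 h. None of the 4 had an adjusted p under 0.05 without the 3 arrays of other times that correlate poorly with the rest, where 1 other, Gm10522, did. The platelet median, 1.15 at 3 h, was 0.49 after 1 h, 1.88 after 1.5 h and −0.47 after 4 h, the last 2 of which were 1.52 and 0.42 without those arrays, and no platelet marker had an unadjusted p under 0.05 for 3 h minus 1.5 h. The patrolling markers had a median of −0.15 at 1.5 h, or −0.32 without those arrays. Among these markers 4, Fabp4, Ear2, Cd300e and Adgre4, had an unadjusted p under 0.05 for the difference between the times, with adjusted p = 1.00. Ear2 differed between OA and serum by −0.16 at 1.5 h and by 2.27 at 3 h, a gap of 2.43 (SE 0.89). Pparg showed −0.38 at 1.5 h and 1.64 at 3 h, a gap of 2.02 (SE 0.53), and Fabp5 a gap of 1.78 (SE 0.75).

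Asph and Pparg headed the genes whose difference was higher at 3 h than at 1.5 h, followed by Snx21, Dpep2, a dipeptidase that cleaves leukotriene D4, and Nrp2, a semaphorin receptor. All of these but Pparg were kept only through the OA arrays of 3 h, so that their rank by p supports nothing. Etv1, Plagl1, Gm13275, Sema3f and Tert, the catalytic subunit of telomerase, headed those lower at 3 h than at 1.5 h. Among them Sema3f was kept only through the serum arrays of 3 h. The 3 h minus 1.5 h contrast contains the 3 h difference itself, so genes far apart at 3 h tend to head it. Values at 1.5 h, 4 h and 24 h rested in part on arrays that stood apart. At 1.5 h serum replicate 3 had a median correlation with the other arrays of 0.890. With it the T cell median was 0.13 and that of mature neutrophils −0.38, and without it they were −0.19 and −0.05. The values of Ear2, Pparg and Fabp5 at 1.5 h included this array. At 4 h 1 serum array stood against 2 OA arrays, and OA replicate 2 had a median correlation with the other arrays of 0.836 and 1408 outlier spots. With it 38 of the 39 list medians were below 0 and the median of all genes was −0.37, and without it 30 were below 0 and the median was −0.10. At 24 h serum replicate 1 had the lowest median correlation of the 30 arrays, 0.803. With it 35 list medians were above 0 and the median of all genes was 0.44, and without it these were 33 and 0.09. The median of classical monocytes was −1.56 at 4 h with these arrays and −0.59 without them. Its value for 24 h was 1.89 with them and 1.12 without.

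**Figure D5:**
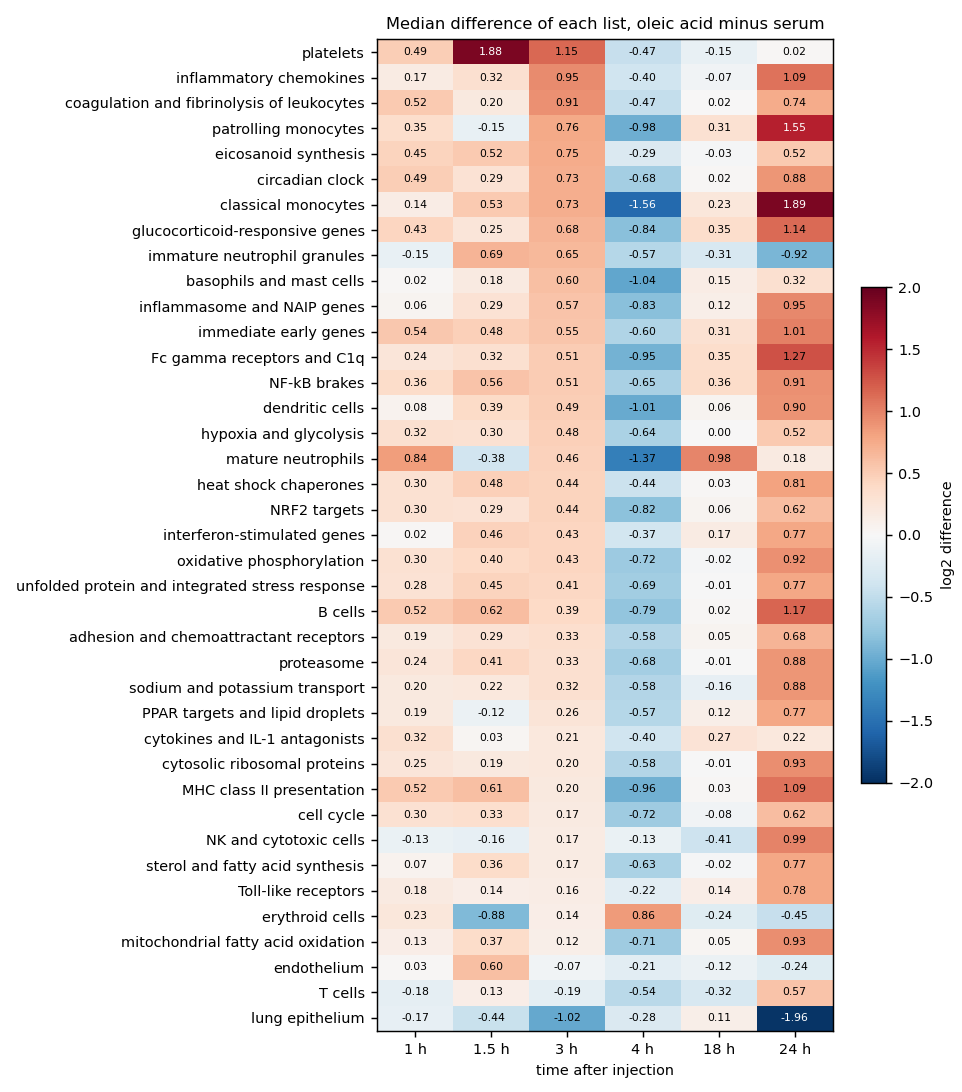
Median log2 difference, OA minus serum, of the measured members of each gene list (rows, ordered by the 3 h value) at the 6 times after injection (columns), with the number printed in each cell and colour from blue (lower in OA) to red (higher in OA). Platelets read 1.88 at 1.5 h and 1.15 at 3 h, and classical monocytes 0.73 at 3 h, while the columns of 4 h and 24 h include OA 4 h replicate 2 and serum 24 h replicate 1, which stood apart (correlations 0.836 and 0.803).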

How the data were processed

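The labels name Agilent one-colour mouse arrays of blood mononuclear cells, 30 in 12 groups. The authors deposited linear spot intensity values from Agilent Feature Extraction 10.5.1.1, per the file headers, already background-subtracted and detrended within the array, with marks for spots well above background. They also deposited a table of processed log2 values with column medians of 5.35 to 5.36, used as an alternative; each column matched its own array best, and its normalisation is not stated. Control and outlier spots were left out, spots of a probe were averaged, log2 processed signals were scaled to each array's 75th percentile, and the brightest kept probe stood for a gene. Probes were named through RefSeq accessions where these matched, and otherwise by the file's names. Differences were fitted with limma 3.58.1 in R 4.3.3 on all 30 arrays (18 residual degrees of freedom) with Benjamini-Hochberg adjustment over all genes, and the fit was tested on simulated data. The number of arrays limits the precision. An "at least" fold sets the brighter group's mean against the lowest signal well above background, or the dim probe's own signal where higher.

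The comparison, the gene lists and the tests were chosen with earlier results of these data known. The rule for named genes took the 12 genes with a symbol of smallest p in each direction without overlap and well above background on every array of the higher group, up to 4 members of each list by smallest p, a panel of 39 genes of which 36 were measured, and 5 genes in each direction for 3 h minus 1.5 h. Other list members named in the text were chosen after their values were seen. Alternatives covered scaling, background correction, the filter on dim probes, probe averaging, slide, replicate number, long intergenic signal and leaving out arrays. Values of a few single list members are not reported here, although the list counts and medians include them.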

Additional observations from a re-analysis of the deposited data

How the results depend on the processing

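The depth of these arrays shows as signal over background: 14195 of the 18665 genes were well above background on all 5 arrays, 1316 on neither serum array and 58 on no OA array, so that values of dim genes are the least certain. No gene was called at 3 h in any alternative but 1, the fit without serum replicate 1, and the range over the fits that left out an array was 0 to 12. Leaving out each array in turn gave 331 to 1526 genes higher at an unadjusted limma p under 0.05 and 89 to 1051 lower, the lowest of both without serum replicate 2. The 794 lower genes became 1357 with scaling to always-detected probes, 1245 with the authors' values, 507 with probes well above background on all 5 arrays, 1196 with no filter on dim probes, 1387 with the 5 arrays of 3 h alone, and 520 with OA replicate 1 left out of the filter and the fit, an alternative chosen after seeing the data. The 1227 higher genes became 1861 without the arrays of other times that correlate poorly with the rest. For 3 h minus 4 h, 6 genes were called with the authors' values, and 0 to 7 when an array was left out. With the replicate block 0 genes were called, and 1869 had an unadjusted p under 0.05 against 2021. The labels do not say that a number pairs samples, and with only 2 pairs (correlations of deviations 0.099 and 0.314) the pairing was not taken as given. Of the 39 list medians 28 kept their sign in all 20 alternatives and 11 turned in at least 1. Comparing the groups within the slide that holds both leaves 1 array each and gave values with no test.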
